A study of Mus musculus with 6 samples.

Results

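The globin genes and Ahsp, the gene of the alpha-hemoglobin stabilizing protein, were examined in the RNA of cultured mouse erythroblasts. Members were all rows of the deposited tables whose symbol begins with Hba-, Hbb- or Hbq, together with Ahsp, which gave 13 of the 17060 genes listed in any table. They were 2 adult alpha genes, 4 rows of adult beta genes, 1 embryonic alpha gene, 3 embryonic beta genes, 2 theta genes and Ahsp. Lineage-negative BM cells of WT mice were grown with EPO, which drives erythroid maturation, and received either DMSO, the vehicle, or 10 μM NUP-17d, a small molecule directed at the DEP domain of pleckstrin-2. Treatment lasted 48 hours, and 3 cultures per condition were sequenced. All cultures were of WT cells. The study's methods name C57BL/6 for the WT mice of its drug screen, and the strain, age and sex of the mice behind these cultures are not given in the sources used here. Nothing in the labels says that the cultures came from separate animals, so each p-value measures the spread between these cultures, which may be technical.

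Hemoglobin carries oxygen as a tetramer that pairs alpha-type with beta-type globin chains, each holding a heme group. The genes of each type lie in a cluster, in mice with the embryonic genes ahead of the adult ones, and a developmental switch leaves the adult genes as the main source of globin mRNA in BM. Alpha chains without a beta partner are unstable, and AHSP binds them. The comparison asked how much of each globin transcript was present with and without the compound, and whether the copies and the alpha and beta families moved together.

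All 9 members with enough reads to be tested were lower in NUP-17d-treated cultures, and in each of the 9 every treated culture lay below every DMSO culture. Of all 12306 tested genes, 18.9% were called lower and 23.2% had every treated culture below every DMSO culture. Among the 9, the minor rows Hbb-b1 and Hbb-b2 had no matched position and may not be expression of separate genes. The adult alpha and adult beta families each fell to slightly more than 50% of their level in DMSO, and the ratio of alpha to beta transcripts overlapped between the groups. Ahsp retained 65.0% and Hbq1b, the more abundant theta gene, 70.6% of the DMSO level, against 52.5% for adult alpha. The other theta gene, Hbq1a, retained 42.5%. The embryonic genes had at most 11.01 estimated reads in any culture and were too sparse for a test.

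The alpha cluster lies on chromosome 11, on the plus strand, and the beta cluster on chromosome 7, on the minus strand (GRCm38 coordinates from RefSeq and GENCODE, the assembly that the submitters' processing notes call mm10). Positions were matched for 10 of the 13 members, each with 3 exons. In the order of transcription the alpha cluster held embryonic Hba-x at chr11:32276600-32278116, Hba-a1 at chr11:32283672-32284486, Hbq1b at chr11:32286964-32287912, Hba-a2 at chr11:32296492-32297310 and Hbq1a at chr11:32300069-32300873. The beta cluster held embryonic Hbb-y at chr7:103851754-103853207, Hbb-bh1 at chr7:103841638-103843162 and Hbb-bh2 at chr7:103838801-103840734, and then adult Hbb-bs at chr7:103826523-103827928 and Hbb-bt at chr7:103812524-103813923. Ahsp and the rows named Hbb-b1 and Hbb-b2 are given by symbol.

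The copies must be read with their sequences in view, because the reads were 50 bases long. The coding sequences of Hba-a1 and Hba-a2 differed at 1 of 426 bases, C381T, and those of Hbb-bs and Hbb-bt at 1 of 441 bases, C417T, with positions counted from 1 at the first base of the start codon and the first-named gene's base given first. Both differences fall on the third base of a codon, codon 127 in alpha and codon 139 in beta. The stretches around them are shown because they are the only coding bases that can assign a read to a copy. These stretches come from GENCODE transcripts matched by RefSeq identifier (GRCm38, coding strand, with the differing base in capitals). The 41 bases are coding positions 361 to 401 in alpha and 397 to 437 in beta.
Hba-a1: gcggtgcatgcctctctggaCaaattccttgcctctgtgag
Hba-a2: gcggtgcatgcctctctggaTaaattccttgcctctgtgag
Hbb-bs: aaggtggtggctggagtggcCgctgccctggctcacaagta
Hbb-bt: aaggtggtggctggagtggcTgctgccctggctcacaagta

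Of all 50-base windows in the transcript, 67.5% of those in Hba-a1 were found unchanged in Hba-a2, and 86.9% of those in Hba-a2 were found in Hba-a1. The corresponding shares were 65.8% for Hbb-bs and 58.3% for Hbb-bt, and 36.8% for Hbq1a and 39.8% for Hbq1b. These shares were computed on the GENCODE transcripts, whose lengths can differ from the deposited ones. For Hba-a1 the lengths are 699 against 569 bases, for Hba-a2 554 against 587 and for Hbq1b 562 against 748. The shares in the transcripts that were counted may thus differ. A read from a shared window could be divided between copies by the authors' counting, so the values of single copies are uncertain and the family sums are firmer. No 50-base window of Hba-x, Hbb-y, Hbb-bh1 or Hbb-bh2 occurred in any other of the 10 members with a matched transcript. Coding identity was 61.74% between Hba-a1 and Hba-x, 74.38% between Hbb-bs and Hbb-y and 73.92% between Hbb-bs and Hbb-bh1, so the embryonic rows are separable by sequence from these adult genes.

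Upstream sequence was matched for 9 of the 13 members (RefSeq, GRCm38.p6) and is shown for 6 of them to set adult, embryonic and theta genes side by side. The 130 bases before each transcription start are written 5′ to 3′ on the gene's strand, with matches on either strand in capitals. The letters searched were CACCC for the element bound by Klf1 and its relatives, CCAAT for the box of that name, GATAA for the site of Gata factors, and ATAAA or TATAA for the start-proximal box, where the last pair can overlap.
Hba-a1, chr11:32283542-32283671, plus strand: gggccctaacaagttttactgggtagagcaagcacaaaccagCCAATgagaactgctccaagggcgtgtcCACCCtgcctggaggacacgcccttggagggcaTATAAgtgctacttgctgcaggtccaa
Hbb-bs, chr7:103827929-103828058, minus strand: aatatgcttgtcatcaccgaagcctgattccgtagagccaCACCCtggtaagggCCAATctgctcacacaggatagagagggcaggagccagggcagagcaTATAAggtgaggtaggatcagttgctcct
Hbb-bt, chr7:103813924-103814053, minus strand: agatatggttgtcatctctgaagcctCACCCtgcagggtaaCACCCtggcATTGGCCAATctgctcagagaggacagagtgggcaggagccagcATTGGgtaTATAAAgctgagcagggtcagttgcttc
Hba-x, chr11:32276470-32276599, plus strand: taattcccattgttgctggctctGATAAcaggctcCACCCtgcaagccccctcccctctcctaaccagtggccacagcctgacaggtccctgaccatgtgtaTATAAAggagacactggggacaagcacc
Hbb-y, chr7:103853208-103853337, minus strand: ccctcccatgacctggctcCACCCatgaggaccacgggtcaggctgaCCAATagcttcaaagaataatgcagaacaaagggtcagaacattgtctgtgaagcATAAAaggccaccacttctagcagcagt
Hbq1b, chr11:32286834-32286963, plus strand: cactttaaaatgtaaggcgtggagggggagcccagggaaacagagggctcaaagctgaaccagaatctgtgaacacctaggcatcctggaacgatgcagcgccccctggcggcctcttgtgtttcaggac

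Over 250 bases upstream, CACCC was found in 6 of the 9 members against 52.0% of 32851 mouse promoters, CCAAT in 7 against 33.8%, GATAA in 7 against 22.6%, TATAA in 6 against 22.8% and ATAAA in 4 against 37.3%. The promoter start used for Hbb-bh2 lay inside the gene interval given above. Its GATAA and ATAAA matches, 162 and 161 bases from that start, fell inside the interval too. In Hbq1b the TATAA match lay 152 bases from the start, far from the start-proximal place. The longer CACACCC was found only upstream of Hbb-bs among the 9, against 6.93% of promoters. Upstream of the adult genes the GATAA match lay outside the stretch shown, 178 to 205 bases from the start. The theta genes held neither CACCC nor GATAA in these 250 bases. The upstream stretch of Hba-a2 matched that of Hba-a1 at all 130 bases once shifted by 3 bases, Hbq1a matched Hbq1b at 127 of 130, and Hbb-bt matched Hbb-bs at 97 of 130. A match of letters is a description of the window and not a binding site.

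**Figure D1:**
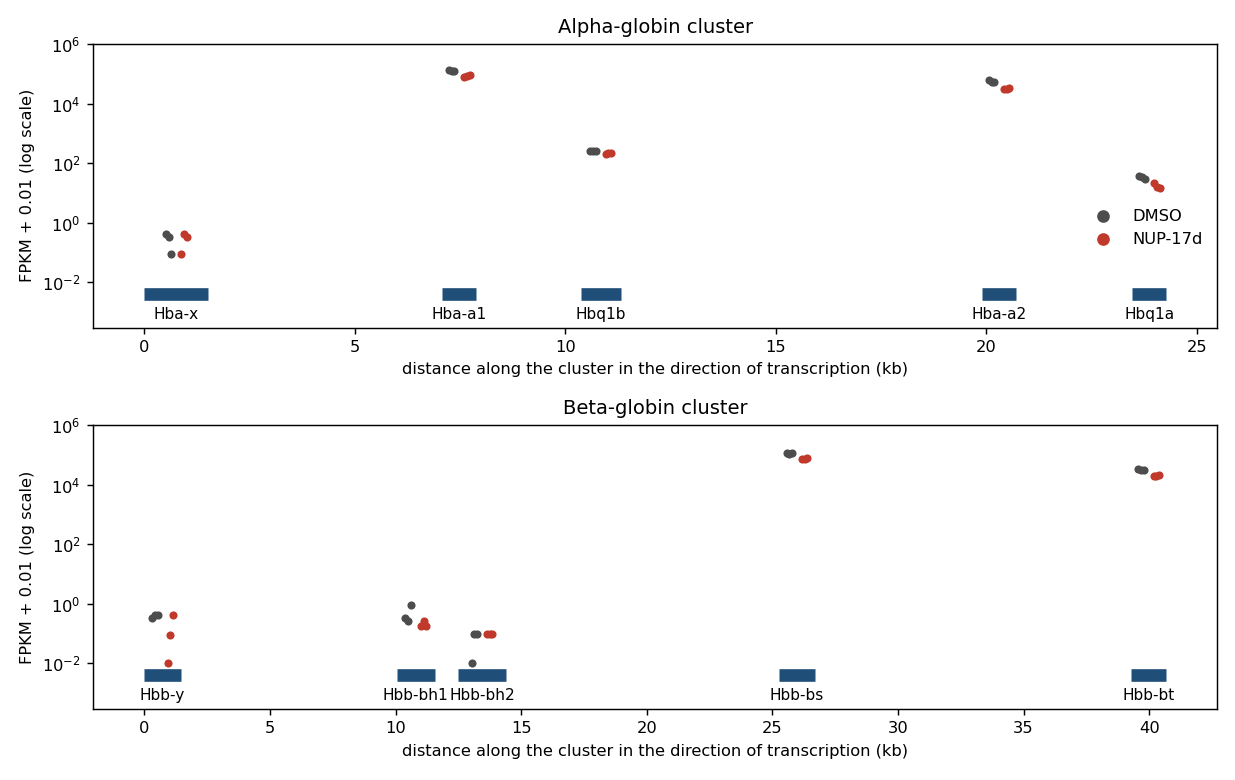
FPKM plus 0.01 on a log axis for each globin gene with a matched position, placed by its distance in kb along the alpha cluster (top) and the beta cluster (bottom), with dark bars for the genes and 1 point per culture (grey DMSO, red NUP-17d, spread sideways only so that they can be told apart). The adult genes Hba-a1, Hba-a2, Hbb-bs and Hbb-bt stand at 19340 to 134991 FPKM, the theta genes at 14.7 to 251.5 FPKM and the embryonic genes at 0.92 FPKM or less.

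Levels can be compared between genes only per transcript length, for which FPKM, the deposited count scaled by length and library total, was used. In DMSO the order was Hba-a1 with 127247 ± 6868 FPKM (SD, n = 3), Hbb-bs with 114607 ± 6191, Hba-a2 with 54501 ± 4306 and Hbb-bt with 31883 ± 737. Ahsp followed with 1658 ± 59.9 FPKM, Hbq1b with 249.7 ± 2.41, Hbq1a with 33.8 ± 3.72, Hbb-b1 with 16.3 ± 4.47 and Hbb-b2 with 2.25 ± 1.09. This order was the same in NUP-17d, and in both conditions no pair of neighbours among these 9 overlapped between cultures. The rank of Hba-a1 above Hbb-bs rests on the deposited lengths, 569 against 639 bases. In mean estimated reads Hba-a1 was the lower, 1415416 against 1442366 in DMSO and 922618 against 930997 in NUP-17d. The values of single copies also depend on how shared reads were divided. The embryonic genes, at 0 to 0.92 FPKM, could not be ordered. Globin rows took 18.3% to 20.3% of all counts in DMSO cultures and 11.8% to 13.1% in NUP-17d cultures, and the copies Hba-a1, Hba-a2, Hbb-bs and Hbb-bt supplied at least 99.857% of the globin counts in every culture.

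Since counts are shares of a library and this share differed between the groups, changes were measured as CPM after TMM scaling, which corrects for library composition. Library totals were 20278433 to 20419018 estimated reads in DMSO and 20076409 to 20170197 in NUP-17d. In the edgeR quasi-likelihood test the median log2 fold change of all 12306 tested genes was 0.01 with TMM and 0.28 with library totals only, a shift of 0.27. Of these genes, 18.9% passed the adjusted p threshold of 0.05 in the lower direction, as did 9 of 9 tested members, and 16.4% passed in the higher direction, as did 0 of 9. The median log2 fold change of the tested members was -0.88, and 526 tested genes, or 4.27%, had a log2 fold change as low as that of the least reduced member, Hbq1b. The other 4 members did not pass the filter on low counts.

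Summed over its copies, adult alpha-globin, the alpha chain of adult hemoglobin, stood at 121064, 102709 and 106634 CPM in DMSO cultures 1, 2 and 3 and at 54579, 55270 and 63484 CPM in NUP-17d cultures 1, 2 and 3. The lowest DMSO culture was well above the highest treated one, and treated culture 3 was the highest of its group. The log2 fold change was -0.93 ± 0.06 (SE, adjusted p = 9.47e-13), or 52.5% of the DMSO level. Adult beta-globin, the partner chain, summed to 107508, 93585 and 97913 CPM in DMSO and to 52102, 51832 and 57158 CPM in NUP-17d. The groups again did not overlap, with a log2 fold change of -0.89 ± 0.05 (adjusted p = 1.85e-13), or 53.9% of the DMSO level. In this fit with summed families, 18.9% of 12302 genes were called lower. In these bulk samples, fewer globin-producing cells and less globin RNA per cell cannot be told apart.

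The copies were then taken one at a time. Hba-a1 measured 83198, 71534 and 74239 CPM in DMSO and 39231, 40165 and 45979 CPM in NUP-17d, a log2 fold change of -0.87 ± 0.06 (adjusted p = 4.61e-12). Hba-a2, the downstream alpha copy, measured 37858, 31180 and 32391 CPM in DMSO and 15350, 15105 and 17506 CPM in NUP-17d, a log2 fold change of -1.08 ± 0.06 (adjusted p = 1.01e-13). Both copies separated the groups fully, and Hba-a2 retained 47.3% of its DMSO level against 54.8% for Hba-a1.

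Hbb-bs, the more abundant adult beta gene, measured 84446, 72218 and 76670 CPM in DMSO and 41164, 40422 and 44909 CPM in NUP-17d, a log2 fold change of -0.88 ± 0.06 (adjusted p = 7.94e-13). Hbb-bt measured 23037, 21363 and 21227 CPM in DMSO and 10933, 11405 and 12244 CPM in NUP-17d, a log2 fold change of -0.92 ± 0.05 (adjusted p = 1.58e-14). The fitted changes of the beta copies lay within 1 SE of each other, and neither copy had an overlap between groups.

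The rows Hbb-b1 and Hbb-b2, also named as adult beta genes, were minor. Neither had a matched position or transcript in GRCm38, so the windows they share with Hbb-bs and Hbb-bt were not measured. Whether their estimated reads were divided off from reads of those genes was not tested, so their values may not be expression of separate genes. Hbb-b1 had 264, 155 and 188 estimated reads in DMSO and 133, 122 and 137 in NUP-17d, and its log2 fold change was -0.88 ± 0.14 (adjusted p = 1.97e-05). Hbb-b2 had 43.5, 21.3 and 18.7 estimated reads in DMSO and 14.3, 4.92 and 16.3 in NUP-17d, with a log2 fold change of -1.49 ± 0.36 (adjusted p = 0.00192). For both rows DMSO culture 1 was the highest. The call for Hbb-b2 rested on that culture, since without DMSO culture 1 its log2 fold change was -1.0 with adjusted p = 0.0504.

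**Figure D2:**
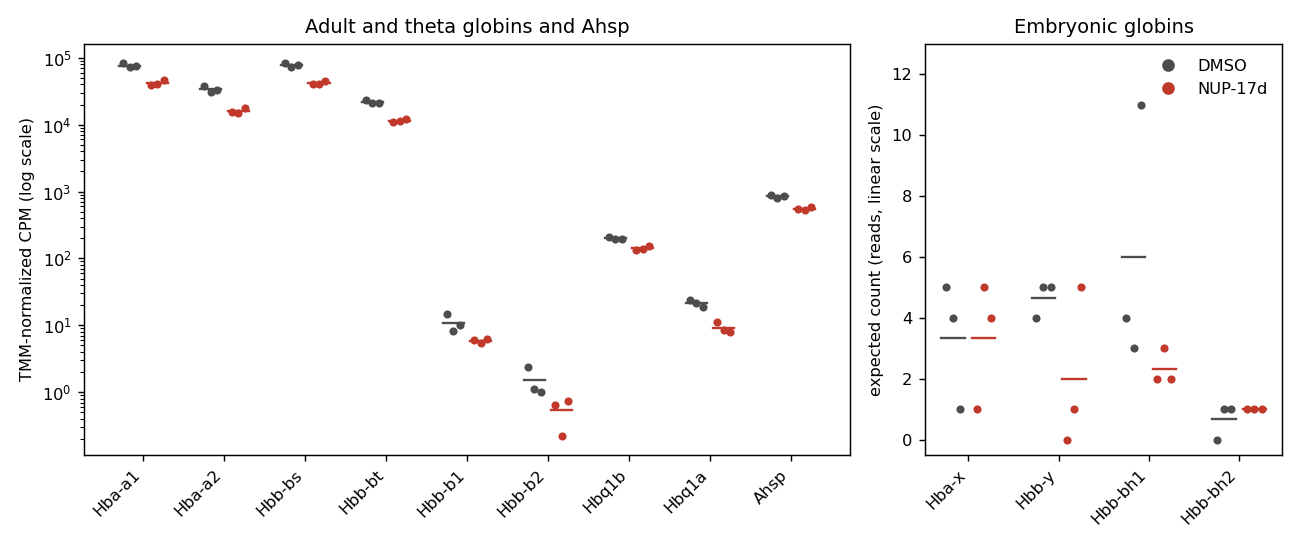
Left, TMM-normalized CPM of the 9 tested members on a log axis. Right, estimated reads of the 4 embryonic genes on a linear axis, with 1 point per culture (grey DMSO, red NUP-17d) and a bar at each group mean. Every NUP-17d point on the left lies below every DMSO point of the same gene. On the right the groups overlap in estimated reads in each embryonic gene, in Hbb-bh1 only by a tie at 3 reads. In TMM-normalized CPM, Hbb-bh1 did not overlap (0.158 to 0.591 in DMSO, 0.0904 to 0.134 in NUP-17d).

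The theta genes encode alpha-type globin chains whose place in hemoglobin is not established. Hbq1b, next to Hba-a1, measured 207.1, 196.5 and 196.2 CPM in DMSO and 132.4, 139.2 and 152.0 CPM in NUP-17d, a log2 fold change of -0.50 ± 0.04 (adjusted p = 2.81e-10). Hbq1a, next to Hba-a2, measured 24.2, 21.9 and 18.8 CPM in DMSO and 11.1, 8.56 and 7.89 CPM in NUP-17d, a log2 fold change of -1.24 ± 0.10 (adjusted p = 1.04e-10). The gene beside the less reduced alpha copy was thus the less reduced theta gene, at 70.6% of its DMSO level against 42.5% for Hbq1a. This likeness of neighbours was noticed after the values were seen and was not tested. Ahsp, the chaperone of free alpha chains, measured 898.9, 801.4 and 862.5 CPM in DMSO and 547.7, 527.7 and 590.0 CPM in NUP-17d. It retained 65.0% of its DMSO level, a log2 fold change of -0.62 ± 0.04 (adjusted p = 4.94e-12).

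Scaling changed the size of these falls but not their direction or call in any of the 9 members. With library totals only, where 5.36% of all tested genes were called lower, log2 fold changes ran from -0.23 for Hbq1b to -1.22 for Hbb-b2, with -0.60 for Hba-a1, -0.81 for Hba-a2, -0.61 for Hbb-bs and -0.66 for Hbb-bt. Taken against the median of all genes under each scaling, Hba-a1 stood at -0.88 with both TMM and library totals, and Ahsp at -0.64 with both. This likeness follows from the construction, because another scaling shifts every gene by nearly the same amount, and is no check of the scaling.

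**Figure D3:**
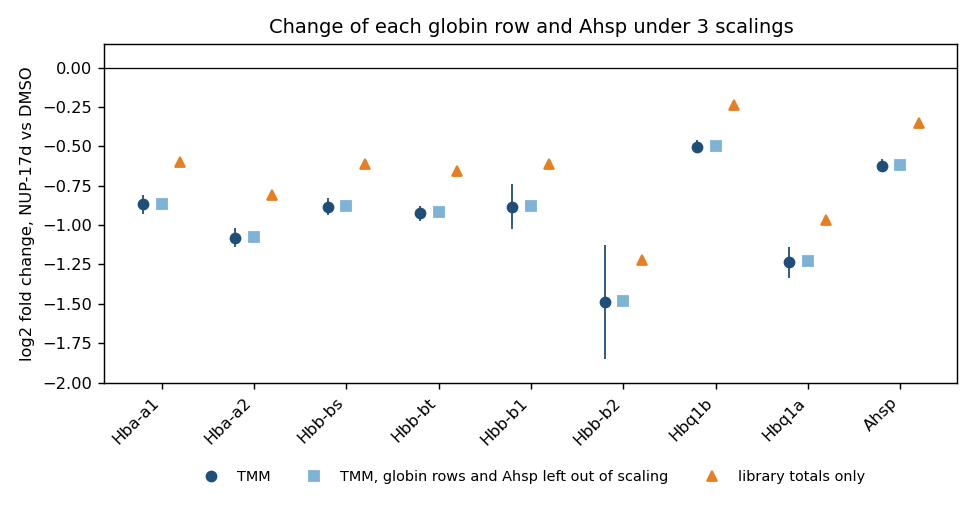
Log2 fold change (NUP-17d against DMSO, 3 cultures each) of the 9 tested members with TMM scaling (circles, bars ± SE), with TMM factors computed without the members (squares) and with library totals only (triangles). All points lie below 0, and the triangles sit higher by about the shift of 0.27 in the median of all genes.

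Balance between transcripts was measured as ratios of FPKM within each culture, which need no scaling between cultures. There were 9 such ratios, tested with two-sided exact permutation tests that cannot go below p = 0.1 with 3 cultures against 3, and p-values were adjusted over the 9. The ratio of adult alpha to adult beta was 1.26, 1.23 and 1.22 in DMSO and 1.18, 1.20 and 1.25 in NUP-17d. Means were 1.24 ± 0.0215 and 1.21 ± 0.0365 (SD, n = 3), the groups overlapped, and the exact permutation p was 0.3 (adjusted p = 0.514). The overlap came from NUP-17d culture 3, since cultures 1 and 2 lay below every DMSO culture. The difference in means, -0.0319, was -0.052 without NUP-17d culture 3, -0.0164 without NUP-17d culture 1 and -0.0197 without DMSO culture 1. With 3 cultures against 3 this test could not pass 0.05 for any difference, so neither a change nor an equal balance is shown.

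Ahsp stood at 8.73, 9.17 and 9.51 per 1000 FPKM of adult alpha in DMSO and at 11.8, 11.2 and 10.9 in NUP-17d. All treated cultures were above all DMSO cultures, with means of 9.14 ± 0.390 and 11.3 ± 0.444 and the smallest p the exact permutation test allows, 0.1 (adjusted p = 0.225). The chaperone's transcripts were thus more abundant per alpha transcript in every treated culture. The theta genes together stood at 1.56 ± 0.0828 per 1000 FPKM of adult alpha in DMSO and at 2.0 ± 0.0648 in NUP-17d. These groups did not overlap either (exact permutation p = 0.1, adjusted p = 0.225), but this ratio was formed after values were seen.

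The split between copies was compared in the same way, with ratios that were likewise formed after values were seen. Hba-a1 supplied 69.4%, 70.3% and 70.3% of adult alpha FPKM in DMSO and 72.5%, 73.3% and 73.1% in NUP-17d, with no overlap (exact permutation p = 0.1, adjusted p = 0.225). Hbb-bs supplied 78.2% ± 0.737 of adult beta in DMSO and 78.7% ± 0.507 in NUP-17d, and the groups overlapped (exact permutation p = 0.4). Hbq1b supplied 88.1% ± 1.07 of theta FPKM in DMSO and 92.4% ± 1.72 in NUP-17d, without overlap (exact permutation p = 0.1). Hbb-b1 and Hbb-b2 together were 0.0126% ± 0.00312 of adult beta in DMSO and 0.0122% ± 0.000936 in NUP-17d (exact permutation p = 0.9). Shares of near-identical copies depend on how shared reads were divided, and that part was not tested.

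**Figure D4:**
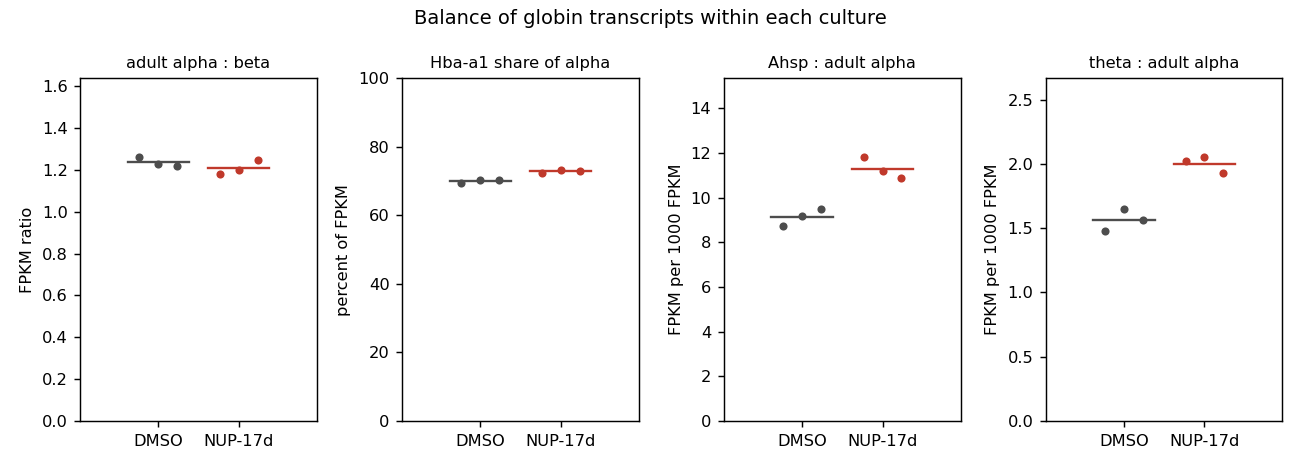
Within-culture ratios of FPKM for adult alpha to adult beta, the Hba-a1 share of adult alpha, Ahsp per 1000 adult alpha and theta per 1000 adult alpha, with 1 point per culture, a bar at each mean and axes from 0. The alpha to beta ratio overlaps between DMSO (1.22 to 1.26) and NUP-17d (1.18 to 1.25), and the other 3 ratios are higher in every NUP-17d culture.

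The embryonic genes, which serve the primitive red cells of the embryo, were near the limit of detection in both conditions. Hba-x, the alpha-type embryonic gene called zeta, had 5, 4 and 1 reads in DMSO and 1, 5 and 4 in NUP-17d, the same sum of 10 in each. Hbb-y, an embryonic beta-type gene, had 4, 5 and 5 reads in DMSO and 0, 1 and 5 in NUP-17d. Hbb-bh1, expressed in the yolk sac, had 4, 3 and 11.01 reads in DMSO and 2, 3 and 2 in NUP-17d. Hbb-bh2 had 0 or 1 read in every culture. The 0 of Hbb-y in NUP-17d culture 1 allows up to 0.149 CPM (3 counts of the library total), a limit that covers counting error only.

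When the filter on low counts was dropped, adjusted p was 0.86 for Hba-x, 0.212 for Hbb-y and 0.102 for Hbb-bh1. As a share of alpha-like globin FPKM, Hba-x was 0.000145% ± 8.73e-05 in DMSO and 0.000235% ± 0.00015 in NUP-17d (SD, n = 3, exact permutation p = 0.4). The 3 embryonic beta genes were 0.000647% ± 0.000292 of beta-like FPKM in DMSO and 0.00047% ± 0.000201 in NUP-17d (exact permutation p = 0.5). Groups overlapped in both shares, which rest on a few reads each.

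Heme, the iron-bearing group of each globin chain, is made by a short chain of enzymes. All 9 genes of the heme synthesis list were called lower, beside 18.9% of all tested genes. Their median log2 fold change was -0.55 against 0.01 for all tested genes, a smaller fall than the -0.88 of the globin members. Alas2, the first and rate-limiting enzyme in erythroid cells, fell from 4439 to 2624 CPM (log2 fold change -0.76 ± 0.04, adjusted p = 3.07e-14), and Fech, which inserts iron, from 1871 to 1123 CPM (-0.74 ± 0.04, adjusted p = 1.00e-14). Ppox, an enzyme of a later step, had a log2 fold change of -0.68. With library totals only 8 of the 9 were called lower, and Uros went from -0.13 to 0.13 and was called higher. Under that scaling 5.36% of all tested genes were called lower and 68.7% higher.

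Among 42 known regulators of globin genes, 39 were tested, and 19 were lower, 1 was higher and 19 were not called, with a median log2 fold change of -0.10. Among all tested genes 18.9% were lower and 16.4% higher. Those with the lowest p were Cbfa2t3 (-0.59 ± 0.03), a corepressor in the Gata1 and Tal1 complex, Mafk (-0.63 ± 0.04) and Nfe2 (-0.61 ± 0.04), the partners of the NF-E2 factor that binds the globin enhancers, and Eif2ak1 (-0.61 ± 0.04), the heme-regulated kinase that restrains globin translation. These 4 were also lower with library totals only, at -0.32 to -0.36. Gata1, the master factor of the lineage, had a log2 fold change of -0.33 ± 0.04 (adjusted p = 1.65e-08), which was -0.07 and not called with totals only. Ehmt2, a histone methyltransferase, was the member called higher, at 0.10.

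Some calls among the regulators depended on the scaling. Klf1, which binds the CACCC element of the adult beta promoter, had a log2 fold change of -0.24 ± 0.04 (adjusted p = 2.10e-05) with TMM and 0.03 with totals only, where it was not called. Bcl11a, a repressor of embryonic globin genes, had -0.24 ± 0.04 (adjusted p = 8.38e-06) with TMM and 0.02 with totals only, again not called. Myb, a factor of erythroid progenitors, was at 0.09 with adjusted p = 0.0548, and at 0.35 and called higher with totals only. Over the list, totals only gave 22 of 39 higher and 11 lower, where 68.7% of all tested genes were called higher and 5.36% lower.

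Genes that flank the alpha cluster were compared with it. Nprl3, whose introns hold enhancers of the alpha genes, had a log2 fold change of -0.39 ± 0.05 (adjusted p = 2.86e-07), and Snrnp25 and Mpg had -0.34 and -0.40. Rhbdf1 was higher, at 0.25 (adjusted p = 0.00652), and Il9r, at 0.27, was not called. The fitted falls of these lower neighbours were smaller than those of Hba-a1 and Hba-a2, a difference that was not tested. With totals only Nprl3 stayed lower at -0.13, whereas Snrnp25 at -0.07 and Mpg at -0.13 were not called. On the same scaling Rhbdf1 at 0.51 and Il9r at 0.54 were called higher, beside 68.7% of all tested genes called higher and 5.36% lower.

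The genes whose profile over the 6 cultures lay closest to that of the summed globins were 1300017J02Rik, Rundc3a, Trim10, Isg20 and Ube2l6, by root mean square differences of 0.036, 0.048, 0.05, 0.051 and 0.061 in centred log2 CPM, among 8447 genes with at least 10 CPM on average. Their log2 fold changes were -0.88, -0.95, -0.95, -0.91 and -0.90, values near those of the globins because the genes were chosen by this likeness. They are named by this measure alone.

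The label of the cells was compared with their markers. All 9 erythroblast markers were present and all were lower in NUP-17d, with a summed level of 22659 to 24316 CPM in DMSO and 14005 to 14820 CPM in NUP-17d and a median log2 fold change of -0.48. The list shares Alas2, Gata1 and Klf1 with the lists above, and with totals only 7 of its 9 genes were called lower. Neutrophil markers were also present, at 3936 to 4104 CPM in DMSO and 4016 to 4296 CPM in NUP-17d, with 2 of 9 higher and 1 lower. Megakaryocyte markers had 5 of 7 higher (435.2 to 473.7 against 505.9 to 530.9 CPM), and progenitor markers 3 of 6 higher (416.2 to 421.5 against 438.8 to 452.6 CPM).

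Macrophage markers had 2 of 8 higher and 2 lower (623.7 to 681.9 against 674.5 to 742.8 CPM), and mast cell and basophil markers 1 of 6 higher and 3 lower (233.8 to 251.3 against 207.2 to 214.1 CPM). Lymphocyte markers were at 20.8 to 23.6 CPM in DMSO and 19.3 to 19.4 in NUP-17d, with 1 of 5 lower and Ighm listed in no table. The counts in these lists stand beside 16.4% of all tested genes called higher and 18.9% lower. With totals only no gene of the non-erythroid lists was called lower, under a scaling in which 5.36% of all tested genes were called lower and 68.7% higher. The part of these cell types in the lower globin levels was not tested.

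**Figure D5:**
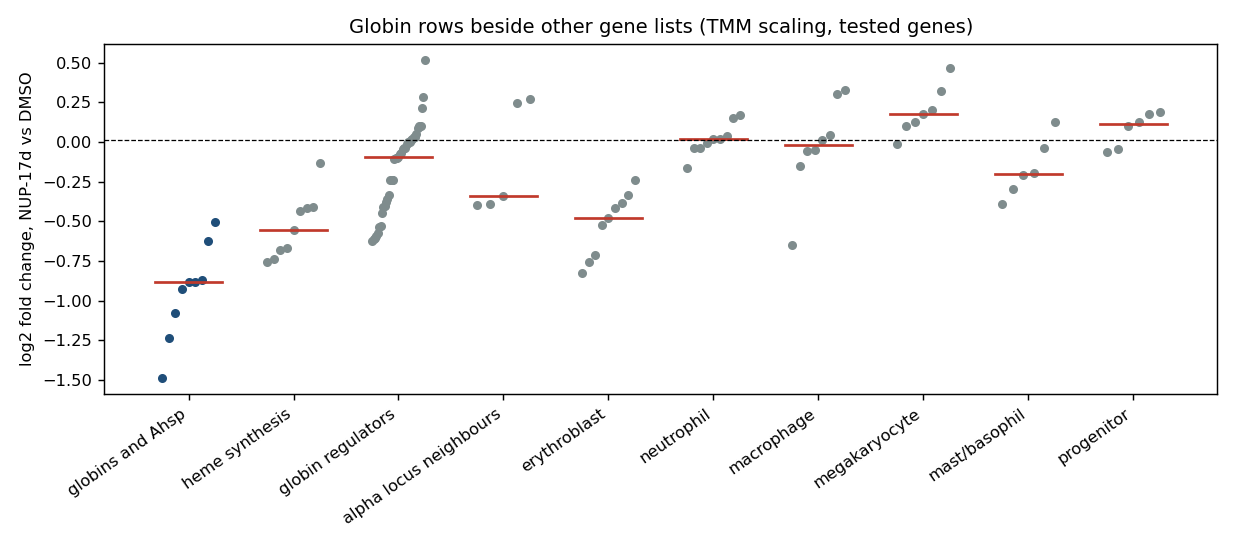
Log2 fold change (NUP-17d against DMSO, TMM scaling) of each tested gene in the globin and Ahsp set (blue) and in the other lists (grey). Lymphocyte markers are not shown. A red bar marks each list's median and a dashed line the median of all tested genes, 0.01. The globin set has the lowest median, -0.88, followed by heme synthesis at -0.55 and the erythroblast markers at -0.48, while the megakaryocyte median is 0.17.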

How the data were processed

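Per the labels, poly(A) RNA was reverse transcribed with random primers and sequenced as single 50-base reads on a DNBseq instrument, whereas the study's methods name a stranded Illumina kit. The authors deposited, per culture, an expected count (estimated reads per gene, not normalized) and an FPKM value (scaled by transcript length and library total). The aligner and counter are not given in the sources used here, and the build is mm10. Genes absent from a table were taken as 0. Groups came from the sample labels.

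Expected counts were rounded and tested with edgeR 4.0.16 in R 4.3.3 (filterByExpr, TMM, quasi-likelihood test, Benjamini-Hochberg adjustment over all tested genes, threshold 0.05), with adult copies separate and summed. Ratios used FPKM and exact permutation tests in scipy 1.17.1. Of the 9 ratios, 5 were added after values were seen, namely theta to adult alpha and the splits between copies. Alternatives were DESeq2 1.42.0, limma 3.58.1 on log2(FPKM + 1) or log2(FPKM + 0.1), other scalings, no filter, a replicate block and leaving out each culture. The members and lists were chosen with earlier results of these data known. Named list genes are those in counts of 5 or fewer or the 4 with the lowest p, plus Klf1, Gata1, Bcl11a, Myb, Alas2, Nprl3 and the 5 nearest profiles. One gene chosen by this rule is not reported here. The scripts were tested on simulated data. Cultures of a group differed by more than sampling noise (chi-square per degree of freedom 1.84 to 4.59). No spike-in was used here, so only relative levels can be read, and the limit given for a count of 0 covers counting error only.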

Additional observations from a re-analysis of the deposited data

How the results depend on the processing

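The 9 tested members stayed lower under every alternative run. With limma on log2(FPKM + 1) and no filter on low values, summed adult alpha was -0.66 (adjusted p = 0.0766) and summed adult beta -0.62 (adjusted p = 0.0618), and Hbb-b2 was -0.71 (adjusted p = 0.0666); the cause was not tested. Across the other alternatives both family sums kept their calls, including -0.93 for alpha and -0.90 for beta with DESeq2. Leaving out 1 culture at a time gave -1.0 to -0.86 for alpha and -0.94 to -0.83 for beta, and without DMSO culture 1 Hbb-b2 was -1.0 (adjusted p = 0.0504). Of all tested genes, 4346 were called with TMM (2019 higher), 9113 with library totals only (8454 higher), 8494, 8480 and 8652 with limma on log2(FPKM + 1), on log2(FPKM + 0.1) and without a filter, and 2971 with DESeq2. Regulators called numbered 20 of 39 with TMM (1 higher), 33 of 39 with totals only (22 higher) and 31 of 42 with limma without a filter (22 higher). These stand beside 4346 of 12306, 9113 of 12306 and 8652 of 17060 tested genes called under the same settings. The difference in the Hbb-b1 and Hbb-b2 share of adult beta, below 0 with all cultures, turned to 0.00141 percentage points without DMSO culture 1 and 0.000182 without NUP-17d culture 2, and leaving out 1 culture at a time gave -0.00158 to 0.00141. Deviations from the group mean were nearly uncorrelated between same-numbered cultures (r = 0.0564, -0.00474 and -0.00286). With 3 cultures per group this cannot decide whether the numbers pair the cultures. With the replicate block, alpha was -0.93, beta -0.89 and 4543 genes were called. Depth limits the embryonic genes, and with 3 cultures per group the exact permutation test of a ratio cannot go below p = 0.1.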
